A study of Chlamydomonas reinhardtii with 9 samples.

Results

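A group of 101 loci of the green alga Chlamydomonas reinhardtii lost most of their transcripts within 2 h of methylmercury, and lost about as much at 0.05 nM as at the higher dose of 0.5 nM. They were picked by their measured levels out of 17737 loci in the count files. A locus belonged if its control libraries averaged at least 10 CPM (assigned reads scaled to a common library size by TMM, which corrects for library composition), if both doses averaged at most 0.35 of that control mean, and if the 0.5 nM mean divided by the 0.05 nM mean was above 0.65. Because these averages chose the loci, the size of their loss, its direction and its likeness between the doses are a description here. No test of them is offered. Within these limits 83 of the 101 averaged less at 0.5 nM than at 0.05 nM and 18 more, where 48.3% of all loci tested averaged less.

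All cultures were wild-type cells of strain CPCC11, held for 2 h in artificial freshwater that contained no methylmercury (control), 0.05 nM or 0.5 nM methylmercury, with 3 biological replicates each. The labels of the 0.05 nM samples word the source differently and are the ones that name a sequencer, so a separate handling of these libraries and their dose cannot be told apart. Libraries held 15138888 to 20433375 assigned reads. Non-unique alignments, left unassigned, came to 43.7% of the assigned count in control replicate 3 and to 19.01% to 27.0% in the other 8 libraries; their part in the results was not tested. The replicate 1 libraries of the 3 groups deviated from their group means in the same loci more than other same-numbered libraries did, with correlations of 0.55 to 0.605.

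Methylmercury is an organic form of mercury that enters cells readily and binds the thiol groups of cysteines and glutathione. In a unicellular alga such as Chlamydomonas every cell meets the dissolved metal directly, and a change in an mRNA level within hours can come from altered transcription, altered decay of the existing mRNA or both. A read count shows the balance of these processes and does not separate them. Neither the files nor the RefSeq gene table of assembly v5.5 pairs these identifiers with a gene name, and the table lists 0 symbols other than locus tags, so the loci are given by identifier, with no role. CPM are not corrected for transcript length, so levels are compared between libraries for a locus and not between loci.

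Across the 101 loci the level left at 0.05 nM was 10.1% to 34.97% of control with a median of 31.8%, and the level left at 0.5 nM was 10.2% to 34.9% with a median of 28.7%. In whole cultures fewer cells that carry an mRNA and less of it per cell cannot be told apart. The losses crowded against the limit of 35%: 64 loci kept at least 30% of control at 0.05 nM and 38 did so at 0.5 nM. At or under 25% of control were 9 loci at 0.05 nM, 34 at 0.5 nM and 8 at both doses. By library, the median locus stood at 96.5% to 106% of its control mean among control libraries, 30.02% to 32.6% among those of 0.05 nM and 25.5% to 29.6% among those of 0.5 nM. The ranges of the library medians did not overlap between any of the 3 groups. The limits on level largely set the controls apart, and the dose means also chose the loci, so this is a description.

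**Figure D1:**
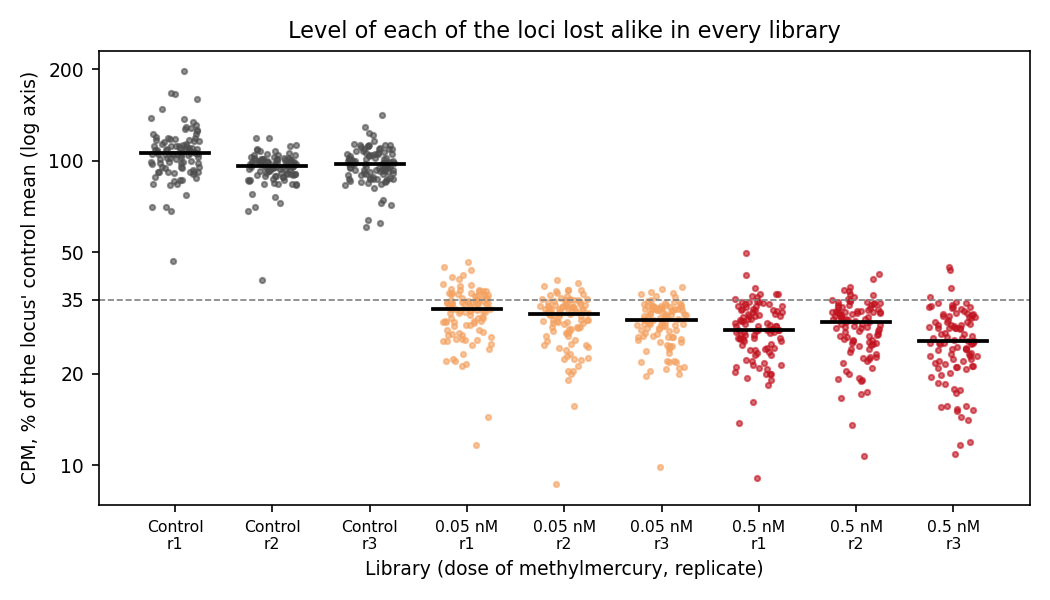
CPM of each of the 101 loci (points) in each of the 9 libraries, as a percentage of the locus' own control mean on a log axis, with the median of each library as a bar and the 35% limit of the selection as a dashed line. The control medians lie between 96.5% and 106%, and the treated medians between 25.5% and 32.6%.

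Control libraries gave the loci a summed CPM of 7815 ± 390, those of 0.05 nM 2451 ± 137 and those of 0.5 nM 2045 ± 144 (SD over 3 libraries). Their share of assigned reads was 0.692% ± 0.0759 in control libraries, 0.258% ± 0.0136 with 0.05 nM and 0.221% ± 0.0292 with 0.5 nM (SD over 3 libraries). One locus, Cre02.g090050, supplied 18.8% to 25.5% of the summed CPM in each library. Without it the sums were 6133 ± 450 in control libraries, 1864 ± 132 with 0.05 nM and 1619 ± 79.0 with 0.5 nM (SD over 3 libraries). The limit of 0.35 on every locus fixes a drop of these sums.

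Few of the loci that fell this far at 0.05 nM lacked a like loss at 0.5 nM. Of 7944 loci with at least 10 CPM in the controls, 118 (1.49%) were at or under 0.35 of control at 0.05 nM, and the 101 loci made up 85.6% of these. Another 9 lost at least a further 35% of their 0.05 nM level at 0.5 nM, and 8 stood above the limit at 0.5 nM. At 0.5 nM, 366 loci (4.61%) were at or under the limit. Of these 366 the 101 loci made up 27.6%, and 256 had kept more than 0.35 of control at 0.05 nM. Both doses were set against the same 3 controls, which ties the ratios of each locus together.

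**Figure D2:**
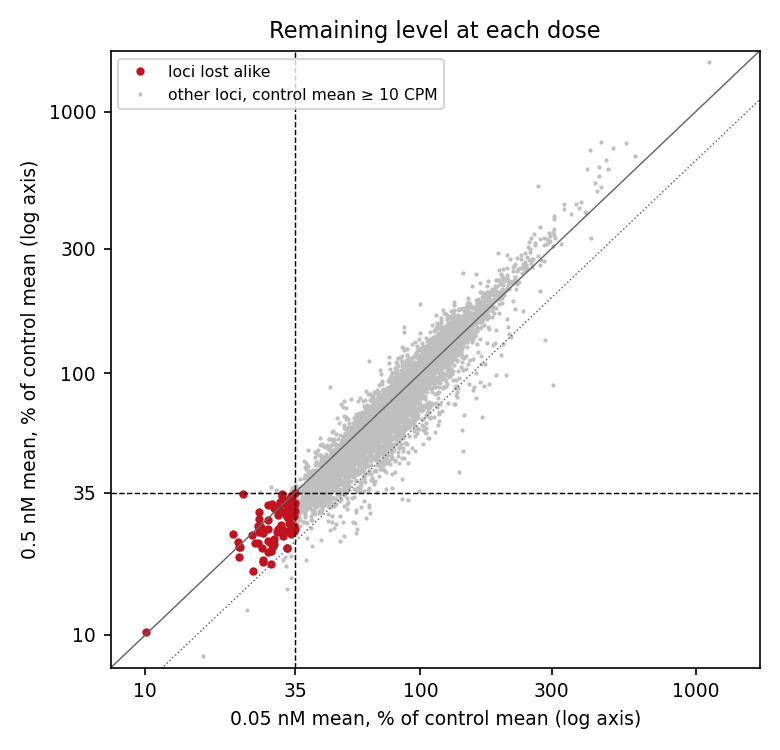
Mean CPM at 0.5 nM (vertical) against mean CPM at 0.05 nM (horizontal), each as a percentage of the control mean on log axes, for the 7944 loci with at least 10 CPM in the controls, with the 101 loci lost alike as larger points. Dashed lines mark 35% of control, the solid line equal levels at the doses and the dotted line a dose ratio of 0.65, and the single locus near 10% at both doses is Cre13.g567400.

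The locus with the most reads was Cre02.g090050, which ranked at 122 of all loci by control CPM. It had 1588, 1668 and 1792 CPM in the controls, 573, 628 and 560.5 CPM at 0.05 nM, and 436, 489.8 and 353 CPM at 0.5 nM. The 3 groups did not overlap, and the 0.5 nM libraries lay lowest. Its log2 change against control was -1.53 ± 0.136 at 0.05 nM and -1.98 ± 0.138 at 0.5 nM (SE).

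The next by control CPM were g15069 and Cre06.g302050. For g15069 the values were 634, 501 and 509.8 CPM in the controls, 176, 134 and 130.1 CPM at 0.05 nM, and 133, 106 and 79.0 CPM at 0.5 nM. Cre06.g302050 had 542, 397 and 386 CPM in the controls, 165, 122 and 92.8 CPM at 0.05 nM, and 89.6, 75.4 and 82.5 CPM at 0.5 nM. In both loci control replicate 1 was the highest library, and every treated library was below every control. Cre06.g302050 was also the locus closest to the dose limit, at 28.7% of control at 0.05 nM and 18.7% at 0.5 nM, a dose ratio of 0.651.

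Cre13.g585000 was among the steadiest. Its CPM were 358, 364 and 374 in the controls, 126.6, 125 and 123 at 0.05 nM, and 112, 124 and 120.1 at 0.5 nM. The doses overlapped, and the level left was 34.2% of control at 0.05 nM and 32.5% at 0.5 nM. Much the same flatness was seen in Cre03.g180450, with 170.2, 152 and 142 CPM in the controls, 49.8, 46.5 and 45.5 CPM at 0.05 nM, and 46.5, 49.5 and 45.7 CPM at 0.5 nM. In that locus the dose ratio was 0.998.

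Cre12.g540300 had 224, 252 and 256 CPM in the controls, 74.8, 81.7 and 76.7 CPM at 0.05 nM, and 56.1, 69.7 and 55.7 CPM at 0.5 nM. All 3 libraries at 0.5 nM were below all 3 at 0.05 nM (edgeR adjusted p = 0.151). Cre13.g603550 had the opposite order of the doses (edgeR adjusted p = 0.168). Neither passed in the unpaired fit. The selection bounded the dose ratio and both levels, so these p-values are a description and no test of a difference. Cre13.g603550 had 118, 144 and 160.1 CPM in the controls, 29.9, 31.8 and 33.8 CPM at 0.05 nM, and 33.9, 48.3 and 63.0 CPM at 0.5 nM. It stood at 34.4% of control at 0.5 nM against 22.6% at 0.05 nM, and its dose ratio of 1.52 was the highest of the 101.

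The remaining loci of the first 10 by control CPM were Cre02.g074800, g2855 and Cre06.g303400. Cre02.g074800 averaged 169 ± 28.5 CPM in the controls, 37.2 ± 5.001 CPM at 0.05 nM and 36.6 ± 1.74 CPM at 0.5 nM (SD, n = 3 each), which is 22.0% and 21.7% of control at the lower and the higher dose. g2855 averaged 145 ± 36.9 CPM in the controls, 48.7 ± 5.79 CPM at 0.05 nM and 39.0 ± 7.82 CPM at 0.5 nM (SD, n = 3 each). Cre06.g303400 averaged 137 ± 27.1 CPM in the controls, 45.4 ± 5.83 CPM at 0.05 nM and 36.6 ± 7.28 CPM at 0.5 nM (SD, n = 3 each). In the last pair the control SD came largely from a high replicate 1 library.

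**Figure D3:**
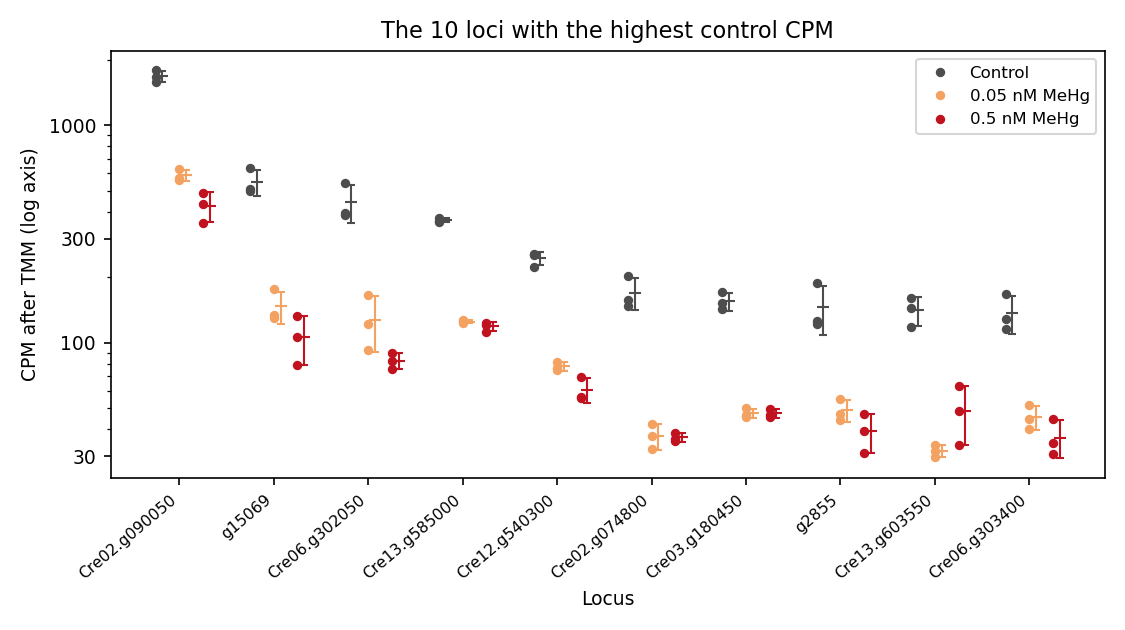
CPM after TMM scaling on a log axis for the 10 loci with the highest control mean, with 1 point per library and, beside the points, the mean with its SD (n = 3 per group). For each locus all 6 treated libraries lie below all 3 controls, and Cre13.g603550 alone among the 10 averages more at 0.5 nM than at 0.05 nM.

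Cre13.g567400 lost the most. It had 19.4, 12.8 and 13.5 CPM in the controls, 1.78, 1.32 and 1.503 CPM at 0.05 nM, and 1.39, 1.63 and 1.65 CPM at 0.5 nM. The doses overlapped, at 10.1% and 10.2% of control, log2 changes of -3.32 ± 0.202 at 0.05 nM and -3.31 ± 0.202 at 0.5 nM (SE). These treated values rest on as few as 25 reads in a library, the lowest count of any of the 101 loci.

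No other locus came near it at both doses. The next by the mean of the 2 ratios were Cre17.g727800, at 21.9% of control at 0.05 nM and 19.8% at 0.5 nM, and Cre08.g358750, at 24.7% and 17.5%. Cre17.g727800 had 107, 89.5 and 86.2 CPM in the controls, 24.4, 18.8 and 18.5 CPM at 0.05 nM, and 19.4, 17.9 and 18.6 CPM at 0.5 nM. Its doses overlapped, and replicate 1 was the highest library in each group. Cre08.g358750 had 79.7, 69.9 and 76.7 CPM in the controls, 19.2, 20.03 and 16.5 CPM at 0.05 nM, and 13.8, 14.4 and 11.4 CPM at 0.5 nM, with no overlap between any of the groups.

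Cre14.g633789 averaged 53.7 ± 4.23 CPM in the controls, 11.7 ± 0.469 CPM with 0.05 nM and 11.7 ± 1.07 CPM with 0.5 nM (SD, n = 3 each). Cre16.g661200 averaged 30.6 ± 5.44 CPM in the controls, 6.62 ± 0.122 CPM with 0.05 nM and 6.90 ± 1.97 CPM with 0.5 nM (SD, n = 3 each). Cre10.g466600 averaged 11.7 ± 1.02 CPM in the controls, 2.43 ± 0.662 CPM with 0.05 nM and 2.83 ± 0.677 CPM with 0.5 nM (SD, n = 3 each). In these loci the libraries of the doses overlapped. They did not in g11587, which averaged 19.95 ± 0.853 CPM in the controls, 5.36 ± 0.679 CPM with 0.05 nM and 3.78 ± 0.662 CPM with 0.5 nM (SD, n = 3 each).

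By control level, 25 of the 101 loci lay under 20 CPM, 62 from 20 to 100 CPM and 14 above that, with a median of 39.2 CPM. Every locus had at least 118 reads in each control library. Under treatment 11 loci had fewer than 50 reads in some library. Between replicates the coefficient of variation had a median of 10.9% among control libraries, 9.85% among those of 0.05 nM and 13.1% among those of 0.5 nM. Over all 7944 loci with at least 10 CPM in the controls it was 10.5% among control libraries. For those 7944 it was 7.60% among libraries of 0.05 nM and 10.3% among those of 0.5 nM. The selection set the treated levels of the 101 low, so the treated spreads are not compared at like levels.

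A quasi-likelihood test in edgeR, adjusted by Benjamini-Hochberg over 14778 loci, called 100 of the 101 loci lower at 0.05 nM at a threshold of 0.05, where 25% of all loci tested were called lower and 52.2% in either direction. At 0.5 nM 100 were again called lower, where 28.7% of all loci were called lower and 60.3% in either direction. All 3 treated libraries lay below all 3 controls for 100 of the 101 at 0.05 nM and for 100 at 0.5 nM, where this held for 28% and 29.6% of all loci. These shares follow from how the loci were chosen. The log2 changes at 0.05 nM ran from -3.32 to -1.52 with a median of -1.66, and those at 0.5 nM from -3.31 to -1.52 with a median of -1.80. Over all loci tested the median log2 change was 0.05 at 0.05 nM and 0.07 at 0.5 nM.

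The exception in each of these counts was g8540. It had 117, 24.2 and 37.3 CPM in the controls, 24.7, 9.33 and 12.1 CPM at 0.05 nM, and 29.6, 8.08 and 15.02 CPM at 0.5 nM. The replicate 1 library was the highest in every group, and the treated replicate 1 libraries overlapped the lowest control. Its log2 change was -1.96 ± 0.724 at 0.05 nM and -1.76 ± 0.716 at 0.5 nM (SE; edgeR adjusted p = 0.0527 and 0.0651). Without control replicate 1 the log2 change was -1.01 at 0.05 nM and -0.81 at 0.5 nM (edgeR adjusted p = 0.217 and 0.301). With the replicate number as a block it was called at 0.05 nM, with a log2 change of -1.82 (edgeR adjusted p = 1.04e-07), and at 0.5 nM, with -1.67 (edgeR adjusted p = 1.43e-07). An alternative added after seeing the data kept replicates 2 and 3. There the log2 changes were -1.53 at 0.05 nM and -1.44 at 0.5 nM (edgeR adjusted p = 0.00388 and 0.00418). The means of these same libraries chose g8540, so all its p-values here are a description and no test of its loss.

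The size of the loss depends on the scale on which libraries are compared. With library totals alone in place of TMM the median locus of all those tested moved up by 0.26 at 0.05 nM and by 0.29 at 0.5 nM on the log2 scale. The calls over all loci were then 5903 higher and 2081 lower at 0.05 nM, in place of 4015 and 3699, and 6707 higher and 2558 lower at 0.5 nM, in place of 4671 and 4234. On that scale 29 of the 101 loci still met the selection and no other locus did, while 100 of the 101 were called lower at each dose. The median log2 change of the 101 minus that of all loci was -1.71 at 0.05 nM and -1.87 at 0.5 nM under either scaling.

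The authors' deposited table lists the 101 loci as lower at both doses. In the authors' deposited table their signed fold ratio at 0.05 nM ran from -9.99 to -2.88 with a median of -3.17, and at 0.5 nM from -9.89 to -2.87 with a median of -3.49, where a negative value is a fold decrease. All 101 were lower with a corrected p under 0.05 at both doses in the authors' deposited table, g8540 included with values of 0.0016 and 0.00373, where 19.9% of all its loci were at 0.05 nM and 23.1% at 0.5 nM. The authors' deposited table rests on the same counts that chose the loci, so it is no independent evidence of their loss.

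Between the doses the loci were close but not centred on equality. The 0.5 nM mean was below the 0.05 nM mean for 83 loci and above it for 18, where 48.3% of all loci tested had the lower mean at 0.5 nM. The ratio of the 0.5 nM to the 0.05 nM mean ran from 0.651 to 1.52 with a median of 0.910. Within 0.9 to 1.1 lay 50 loci, under 0.9 lay 46, and above 1.1 lay 5. The selection set a lower bound on this ratio, and it set upper bounds on both levels, so these counts are a description.

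The selection bounded the dose ratio from below and both levels from above. All calls and p-values of the 101 between the doses are thus a description, and no test of a difference. Between 0.5 nM and 0.05 nM edgeR called 0 of the 101 loci, where 0.832% of all loci were called, 0.819% as lower and 0.0135% as higher. With the replicate number as a block, 18 of the 101 were called lower at 0.5 nM and 1 higher, where 7.04% of all loci were called lower and 1.94% higher. The same-numbered libraries of the doses deviated together, with correlations of 0.55, 0.354 and 0.136, so this comparison depends on whether the pairing is modelled. Without the block, 22 of the 101 were lower and 1 higher at an unadjusted p under 0.05, beside 8.82% and 4.73% of all loci. DESeq2 called 9 of the 101 lower and 1 higher, beside 7.93% and 0.63% of the 7615 loci to which it gave an adjusted p. All 3 libraries at 0.5 nM lay below all 3 at 0.05 nM for 23 loci and above them for 2, against 12.2% and 8.37% of all loci tested. The log2 differences ran from -0.62 to 0.61 with a median of -0.13, and the standard errors had a median of 0.143. The smallest adjusted p was that of Cre08.g358750, with 13.2 ± 1.58 CPM at 0.5 nM and 18.6 ± 1.83 CPM at 0.05 nM (SD, n = 3 each). The log2 difference there was -0.48 ± 0.116 (SE), with an edgeR adjusted p of 0.0735. Without control replicate 1 it passed (edgeR adjusted p = 0.0443).

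At the limits of the selection the members and the loci just outside differed by little. At the control minimum, Cre07.g355950 with 10.1 CPM and Cre06.g305100 with 10.6 CPM were in, and Cre09.g393850 with 9.73 CPM and Cre17.g696950 with 9.55 CPM were out. At the 0.05 nM limit Cre08.g372200 and g9913, at 34.97% and 34.9% of control, were in, and Cre10.g427750 and Cre01.g037100, both at 35.1%, were out. At the 0.5 nM limit Cre08.g372200 at 34.9% and Cre17.g710700 at 34.7% were in, and Cre06.g263200 at 35.1% and Cre12.g555800 at 35.3% were out. At the dose ratio limit Cre06.g302050 at 0.651 and Cre06.g298750 at 0.656 were in, and Cre15.g640150 at 0.633 and Cre02.g141950 at 0.615 were out.

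At the limits on level these gaps are smaller than the replicate spread. Cre08.g372200, at the limit on both doses, had 73.8, 106 and 135 CPM in the controls, 32.0, 38.4 and 39.6 CPM at 0.05 nM, and 29.2, 34.8 and 45.8 CPM at 0.5 nM. Its replicate 1 library was the lowest in each group. For Cre06.g298750 1 library stood low: the locus had 9.52 and 9.56 CPM in 0.5 nM replicates 1 and 2 but 4.23 CPM in replicate 3, against 11.7, 11.9 and 11.97 CPM at 0.05 nM. With 1 library left out at a time, 83 to 128 loci met the selection.

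The selection used averages over replicates, which a single high or low library can shift. How replicates differed is thus not free of the selection. Without control replicate 1, 74 of the 101 loci still met it. A common pattern was seen between replicates. Where replicate 1 lay above or below replicates 2 and 3 in the controls, it tended to do so in the treated groups. The sign of the gap on the log2 CPM scale was the same in control and 0.05 nM for 81 of 101 loci and in control and 0.5 nM for 75. Across the 101 loci, which are not independent replicates and share the libraries, the gaps in the controls had a Pearson correlation of 0.849 with those at 0.05 nM and of 0.786 with those at 0.5 nM. Values of the same size were found over all loci: among the 7944 loci with at least 10 CPM the signs were the same for 79.3% and 77.5%, and the correlations were 0.826 and 0.806.

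**Figure D4:**
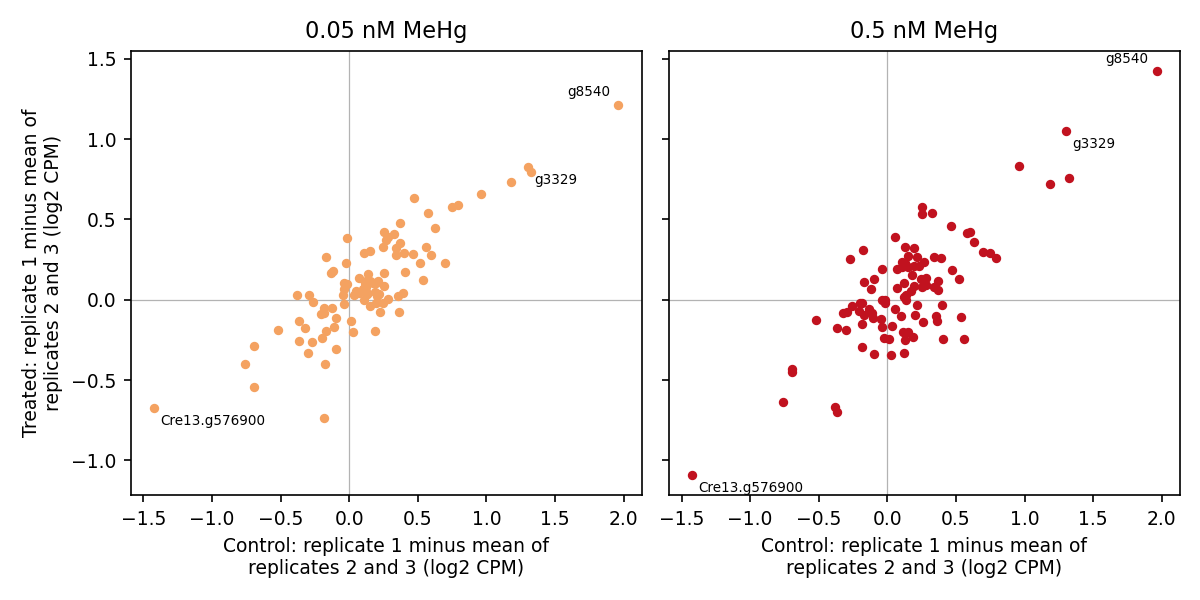
For each of the 101 loci, the log2 CPM of replicate 1 minus the mean of replicates 2 and 3, in the controls (horizontal) and in the treated group (vertical), at 0.05 nM (left) and 0.5 nM (right). Points run along a rising band, from Cre13.g576900, low in replicate 1 of each group, to g8540, high in replicate 1 of each group.

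Replicate 1 was the highest library in all 3 groups for 23 of the loci, or 22.8% against 21.3% of the 7944. It was the lowest in all 3 groups for 8, or 7.92% against 21.1%, a difference that was not tested. In the controls the gap, in either direction, was over 1 in size on the log2 scale for 5 loci. That was 4.95% against 1.49% of the 7944, a difference that was not tested. Among the 5 were g8540, g3329 and Cre13.g576900. Such a gap shifts the control mean that the selection used, so these shares are a description. g3329 had 29.5, 12.5 and 11.3 CPM in the controls, 6.502, 3.64 and 3.67 CPM at 0.05 nM, and 6.49, 4.58 and 2.12 CPM at 0.5 nM. Cre13.g576900 had 8.97, 21.4 and 27.1 CPM in the controls, 4.62, 7.75 and 7.07 CPM at 0.05 nM, and 2.64, 6.25 and 5.09 CPM at 0.5 nM. Replicate 1 was the high library of g3329 in each group and the low one of Cre13.g576900.

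Of the 101 loci, 77 carry Cre numbers, which name a chromosome, and 24 carry g numbers, which do not. The g numbers made up 23.8% of the 101 and 21.97% of the 7944 loci with at least 10 CPM in the controls. The Cre numbers fell on 15 of the 17 chromosomes, with 9 each on chromosomes 2 and 6, 7 each on 1, 13, 16 and 17, and 0 on 5 and 15. As a share of the Cre loci with at least 10 CPM, the loci lost alike were 1.24% in all. By chromosome the share was up to 2.52%, on chromosome 4 (4 of 159), and was 1.63% on chromosome 2 and 1.54% on chromosome 6. Chromosomes 5 and 15 held 158 and 55 such loci. Differences between chromosomes were not tested.

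By locus tag, 73 of the 101 loci were found in the table from RefSeq, and their order there gave each locus' neighbours. Among these 73 a single pair were next to each other, Cre06.g288900 and Cre06.g288908, and the rest of the 101 could not be placed. Cre06.g288900 had 10.9, 18.99 and 17.9 CPM in the controls, 4.11, 5.59 and 5.29 CPM at 0.05 nM, and 3.94, 6.15 and 6.09 CPM at 0.5 nM. Cre06.g288908 had 20.96, 9.01 and 9.41 CPM in the controls, 5.54, 2.90 and 3.79 CPM at 0.05 nM, and 4.63, 2.19 and 3.57 CPM at 0.5 nM. Both were called lower at each dose, but replicate 1 was the lowest library of each group for Cre06.g288900 and the highest for Cre06.g288908. Reads of overlapping loci may not be separated, since no source used here gives the strand setting of the counting.

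Neighbours outside the group changed in either direction. Of 106 such neighbours that were tested, 36 (33.96%) were called lower and 29 (27.4%) higher at 0.05 nM, beside 25% and 27.2% of all loci tested. At 0.5 nM 45 (42.5%) were lower and 35 (33.0%) higher, beside 28.7% and 31.6%. Their median log2 change was -0.06 at 0.05 nM and -0.08 at 0.5 nM.

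The course over the 9 libraries was shared with many loci that fell less. The correlation of each locus with the mean of the other 100 over the 9 libraries, on the log2 CPM scale, had a median of 0.981 and was at least 0.95 for 86 loci. The lowest was 0.724, in g8540. Of 7843 other loci with at least 10 CPM in the controls, 1218 (15.5%) had a correlation of at least 0.95 with the mean of the 101. Those 1218 kept a median of 50.6% of control at 0.05 nM and 45.5% at 0.5 nM. The selection fixed the step between controls and treated libraries for the 101, and this step enters each correlation. The closest was Cre07.g330400, chosen for this likeness, with a correlation of 0.999. It averaged 64.9 ± 2.59 CPM in the controls, 24.9 ± 0.667 CPM with 0.05 nM and 22.9 ± 1.69 CPM with 0.5 nM (SD, n = 3 each).

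The 9 loci that met the limits on level but lost more at 0.5 nM are the nearest group to compare. They kept a median of 32.5% of control at 0.05 nM and 18.4% at 0.5 nM, from a median control level of 47.7 CPM. At 0.05 nM they are thus placed close to the 31.8% of the loci lost alike, and the dose ratio that divides the groups has a median of 0.566 in the 9 and 0.910 in the 101. Between the doses edgeR called 2 of the 9 lower at 0.5 nM, where 0.819% of all loci tested were called lower. A low dose ratio chose the 9, so these calls are a description and no test of a difference. The same split by dose ratio shapes any contrast with the calls of the 101.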

How the data were processed

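RNA of 9 cultures was sequenced from stranded mRNA libraries, per the labels' protocols, and aligned with TopHat2 and counted with HTSeq, per the submitters' processing notes. Their versions, build, annotation and strand setting were not stated in the labels or files. The authors deposited raw counts per locus, and a table that repeats them (9 of 9 columns equal) with CPM rounded to whole numbers, a score the authors also deposited, not tested here. The same table holds the authors' signed fold ratio, a score, with the authors' deposited p-values, corrected for false discovery. HTSeq's unassigned categories were left out. Of assigned, ambiguous and outside reads together, 1.02% to 1.24% lay outside loci and 0.264% to 0.331% were ambiguous.

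Group means of CPM (edgeR TMM over all loci) chose the 101 loci. The loci and lists were chosen with earlier results of these data known. Tests used edgeR 4.0.16 (R 4.3.3, limma 3.58.1): filterByExpr, TMM, a robust quasi-likelihood fit over 9 libraries, modelled on group alone, two-sided, Benjamini-Hochberg adjusted over 14778 loci at 0.05. Standard errors came from the fold change and F. The series design calls the replicates biological and says no more, so p-values measure the spread between these samples, which may be technical. The fit and the selection were tested on simulated counts, with changes planted in few loci and libraries drawn independently. Changes in most loci and shared deviations of same-numbered libraries were not simulated. Same-numbered libraries were checked for shared deviations from their group means. The correlations were all over 0.1 between the doses (0.136 to 0.55) and between 0.05 nM and control (0.188 to 0.601). For 1 pair of 0.5 nM and control the correlation was 0.0903. The numbers were thus taken to pair the first 2 comparisons, and the labels do not say that they do. The main fit did not model this pairing, so its p-values and standard errors are unpaired. Only the replicate block modelled it. Correlations used log2 CPM with 0.5 reads added. Alternatives were other scalings, DESeq2 1.42.0, no filter, a replicate block, each library left out and shifted limits. Loci named were the first 10 by control CPM, the 10 with the lowest ratios, those beside a limit, adjacent ones and the 3 with the widest replicates. Others named were chosen after their values were seen. Lists by product name, protein patterns and promoter motifs gave no result, as no names or sequences were used here. RefSeq v5.5 matched 11713 identifiers, and served for the order of loci alone.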

Additional observations from a re-analysis of the deposited data

How the results depend on the processing

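The number of loci that meet the selection was 29 with library totals alone, 31 at a fraction of control of 0.3, all among the 101, and 234 at 0.4, which hold all 101. It was 83 to 128 with 1 library left out, with 74 to 97 of the 101 among them. Medians of replicates in place of means gave 89 loci, 78 of them among the 101. The other limits and scalings kept the number within 1.5 times. With library totals alone the median log2 change of the 101 was -1.40 at 0.05 nM and -1.51 at 0.5 nM. Loci called between 0.5 nM and 0.05 nM numbered 123, but 652 with DESeq2, 0 with library totals alone (there 11 of the 101 loci had an unadjusted p under 0.05), and 1 with replicates 2 and 3 alone. With 1 library left out they numbered 0 to 383: 383 without control replicate 1, 200 without 0.5 nM replicate 2 and 0 without any of the other 7. Of the 101, DESeq2 called 10 there, and 0 to 1 were called with 1 library left out.

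With the replicate number as a block (replicate block), 1328 loci and 19 of the 101, 18 of them lower, were called between the doses, and g8540 passed at both doses. The block changed no other call of the 101 loci against control. Of 840 values against control of the 28 named loci under the alternatives, 830 kept their direction and their side of the threshold. Values between the doses are not among these 840. The selection fixed a loss against control, so this count is a description. The other 10, in g8540, passed where the reported value did not. There were 3 replicates a group, and 11 of the 101 loci had under 50 reads in some treated library. How many of the 101 were called between the doses depended on the test used. The selection bounded their dose ratio, so these counts are a description and no test of a difference. The causes of these shifts were not tested.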
